A study of Mus musculus with 6 samples.

Results

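The genes that carry oxidative phosphorylation, nuclear and mitochondrial, were compared between FGF2-injected and vehicle-injected mouse embryos. Members were chosen by symbol: genes of the mitochondrial genome, whose symbols start with mt-, and nuclear genes named as subunits of NADH dehydrogenase (Nduf), succinate dehydrogenase (Sdh), the cytochrome bc1 complex (Uqcr), cytochrome c oxidase (Cox, forms numbered 5 to 8) and ATP synthase (Atp5), without pseudogenes. This gave 120 of the 37991 genes listed. Of these, 37 are mitochondrial (13 mRNA, 22 tRNA and 2 rRNA genes) and 83 are nuclear (37 of complex I, 4 of complex II, 8 of complex III, 16 of complex IV and 18 of complex V). Complexes follow the symbols, so that Ndufa4, now assigned to complex IV, stands with complex I, and the less well placed Atp5s and Atp5sl stand with complex V.

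All 6 embryos were of strain CD1 and aged E13.5. In the treated group, 100 ng of FGF2, a growth factor that signals through FGF receptors, was injected into the telencephalic ventricles of 3 embryos (FGF2 6, 7 and 8), and 3 controls (vehicle 7, 8 and 9) received PBS with 0.1% BSA by the same route. RNA came from formalin-fixed frozen sections of the dorsal telencephalon, in front of the hippocampus. The sources used here do not say how long after injection the tissue was taken.

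Libraries held 61489462 to 81532334 counted alignments. Genes of the dorsal telencephalon were detected in every embryo, at a summed 1272 to 1487 CPM (counts per 1000000 counted, on scaled library sizes) with FGF2 and 1986 to 2126 with vehicle over 8 markers, of which 4 were called lower. Vehicle 8 and 9 were female and the other 4 embryos male by Xist and Y-linked reads, so sex overlaps with the groups in part. In vehicle 9 all counts were even numbers, where the other libraries had 51.0% to 51.9% even among those above 0. FGF2 8 stood apart, with a sample weight of 0.232 from voom where the others had 0.841 to 1.95.

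Oxidative phosphorylation makes most of a respiring cell's ATP. Complexes I and II pass electrons from NADH and succinate to ubiquinone, complex III passes them on to cytochrome c and complex IV to oxygen, while complexes I, III and IV move protons across the inner membrane and complex V, the ATP synthase, lets them back to make ATP. Complex II is built from nuclear genes alone, and the other complexes combine subunits from both genomes. The mitochondrial genome is copied into long RNAs from both of its strands, out of which the tRNAs are cut, freeing the mRNAs and rRNAs between them. Neural progenitors at this age rely in good part on glycolysis, and subunit expression is known to grow as neurons form.

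Of the 120 members, 115 passed the filter on low counts and were tested. Those left out were mt-Tv and the tissue forms Cox6a2, Cox7b2, Cox8b and Cox8c. Past an adjusted p of 0.05 by edgeR's quasi-likelihood test with Benjamini-Hochberg adjustment over all 21983 genes tested, 2 members were higher with FGF2 and 0 lower. Both were nuclear, giving 2 of 79 nuclear members tested. Over all genes tested, 3.63% were called, 2.68% higher and 0.951% lower, so the share of nuclear members called higher (2.53%) was near the background. The 2 genes were Cox6b2 and Atp5k. None of the 36 mitochondrial genes tested was called, and 0 of them had an unadjusted p under 0.05. In bulk tissue, fewer cells of a type and less RNA per cell cannot be told apart.

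Cox6b2 encodes the testis form of the complex IV subunit whose common form is Cox6b1. It was measured at 9.59, 9.70 and 8.55 CPM in FGF2 6, 7 and 8, and at 4.91, 4.02 and 5.02 CPM in vehicle 7, 8 and 9. Every FGF2 embryo was above every vehicle embryo. The group means were 9.28 ± 0.634 and 4.65 ± 0.544 CPM (SD, n = 3), a log2 fold change of 0.998 ± 0.149 (SE; edgeR adjusted p = 0.0137). These levels rest on 550 to 807 reads with FGF2 and 269 to 316 with vehicle. The gene, ENSMUSG00000051811, lies on chromosome 7 from 4703396 to 4704696 (NCBIM37) and overlaps no other gene span. The common form Cox6b1, which holds most of the summed RPKM (reads per length of the gene model, scaled for library size) of the pair, had a log2 fold change of 0.28 ± 0.12 (adjusted p = 0.263). Cox6b2 made up 5.80%, 5.46% and 3.63% of that sum in FGF2 6, 7 and 8 and 3.29%, 2.76% and 2.96% in the vehicle embryos. FGF2 8 was thus the lowest of the treated embryos in this share, and the groups still did not overlap.

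Atp5k encodes subunit e of ATP synthase, a small membrane protein at the contact between the synthase monomers of a dimer. It stood at 40.6, 47.8 and 58.5 CPM in FGF2 6, 7 and 8 and at 31.1, 30.9 and 31.8 CPM in the vehicle embryos. The vehicle embryos lay close together, and the FGF2 embryos were spread out above them. Its means were 49.0 ± 8.99 and 31.3 ± 0.473 CPM (SD, n = 3), and its log2 fold change was 0.64 ± 0.13 (SE; edgeR adjusted p = 0.0418). The gene, ENSMUSG00000050856, lies on chromosome 5 from 108862263 to 108863467 (NCBIM37) and overlaps no other span. Neither call held for every choice of embryos. Without FGF2 7, vehicle 7, vehicle 8 or vehicle 9 the adjusted p of Atp5k was 0.0973, 0.157, 0.178 or 0.130, and without FGF2 7, vehicle 7 or vehicle 8 that of Cox6b2 was 0.0560, 0.0679 or 0.0769. With sex as a covariate the log2 fold changes of Atp5k and Cox6b2 were 0.652 and 0.919. Both female embryos had received vehicle, so the group difference in that fit rests on vehicle 7 as the only male control.

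The promoters of both genes are shown because NRF1, a factor known to act on many nuclear subunit genes, has a recognisable site that one of them carries and the other does not. They are the 250 bases before the RefSeq gene start (GRCm38.p6, minus strand for both, chr5:108434400-108434649 and chr7:4753095-4753344), 5′ to 3′, with a match to the NRF1 motif in capitals.
Atp5k: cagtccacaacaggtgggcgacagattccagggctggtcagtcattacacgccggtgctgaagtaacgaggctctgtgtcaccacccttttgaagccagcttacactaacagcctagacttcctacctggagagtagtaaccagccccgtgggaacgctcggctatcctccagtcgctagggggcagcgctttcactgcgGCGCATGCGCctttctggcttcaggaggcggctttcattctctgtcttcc
Cox6b2: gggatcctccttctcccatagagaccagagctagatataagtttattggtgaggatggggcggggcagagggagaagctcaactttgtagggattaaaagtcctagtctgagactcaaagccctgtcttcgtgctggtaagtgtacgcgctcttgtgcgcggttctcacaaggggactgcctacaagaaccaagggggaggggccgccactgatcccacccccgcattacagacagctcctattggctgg
In Atp5k the match lies 50 to 41 bases before the start. The motif searched was GCGC, then A, any base and GCGC again, on both strands, over windows of 300 bases that run 50 bases past the start. It was found in 16 of the 66 nuclear members with a promoter in the RefSeq table (24.2%) and in 4.78% of all 27025 promoters there. By complex it was in 7 of 32 promoters of complex I, 2 of 3 of complex II, 1 of 5 of complex III, 1 of 13 of complex IV and 5 of 13 of complex V. A core of the ETS family, which includes the nuclear respiratory factor GABP, searched as CCGGAAG on both strands, was in 15 of 66 members (22.7%) and in 9.12% of all promoters. The matches of the 2 motifs do not overlap in Atp5k, whose ETS match lies past the start. Members with and without a motif had close medians. The median log2 fold change was 0.18 over the 16 tested members with the NRF1 motif and 0.19 over the 48 without, and 0.20 over 15 with the ETS core against 0.18 over 49 without.

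Next to the threshold stood other small subunits. These were named after their values were seen. Cox7c, a small membrane subunit of complex IV, was measured at 63.4, 73.0 and 79.4 CPM with FGF2 and 54.4, 48.8 and 54.2 CPM with vehicle (log2 fold change 0.46 ± 0.10, edgeR adjusted p = 0.0514). Ndufa3, an accessory subunit of complex I, was at 56.0, 65.8 and 72.9 CPM against 45.7, 41.3 and 50.3 CPM (0.50 ± 0.12, edgeR adjusted p = 0.0652). Neither gene's groups overlapped. In both, FGF2 8 was the highest embryo and FGF2 6 the lowest of the treated ones, the same order as in Atp5k. Ndufa12, another accessory subunit, had 77.3, 82.6 and 88.9 CPM against 66.1, 68.7 and 67.9 CPM (0.30 ± 0.08, adjusted p = 0.0863). Cox7c and Ndufa3 passed the threshold without FGF2 6 (adjusted p = 0.0381 and 0.0463) and without FGF2 8 (0.0294 and 0.0497).

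How many nuclear members were called moved with the setting, and is given beside the share of all genes called higher. Without FGF2 8, 5 of 79 were called higher where 4.31% of all genes were, and without FGF2 6, 4 of 79 against 1.88%. Without FGF2 7, vehicle 7 or vehicle 8 it was 0 of 79 against 1.5%, 0.905% and 0.807%, and without vehicle 9 it was 1 of 79 against 1.11%. Voom with sample quality weights called 7 of 79 against 5.79%, DESeq2 6 of 79 against 6.11%, and library totals alone 5 of 79 against 3.11%. With no low-count filter 4 of 82 were called against 2.16%, with unfiltered log2(RPKM + 1) values 1 of 81 against 0.909%, and with sex as a covariate 0 of 79 against 0.0182%. The fit with sex has vehicle 7 as its only male control, so its group difference rests on that embryo. No nuclear member was called lower in any of these settings.

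**Figure D1:**
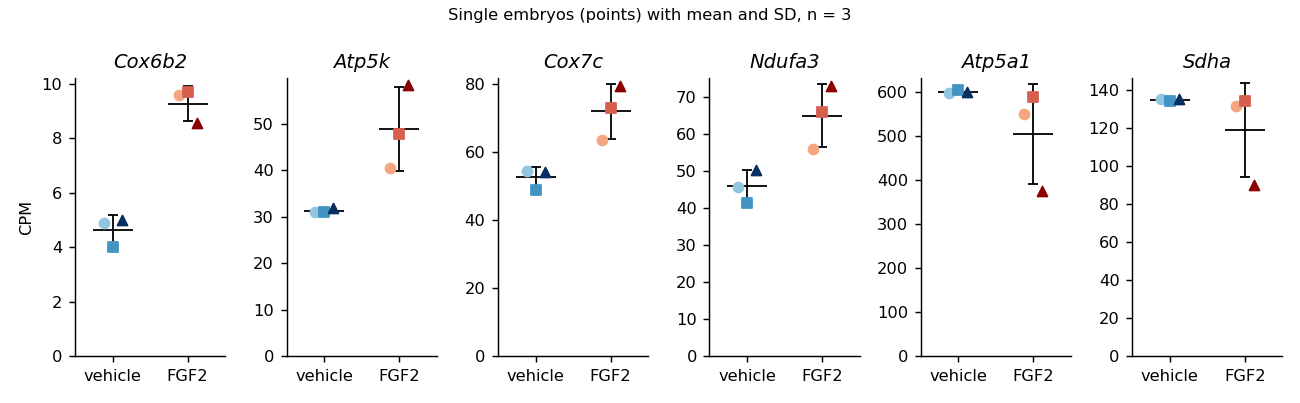
CPM of 6 nuclear members in each embryo (circle, square and triangle: FGF2 6, 7 and 8 or vehicle 7, 8 and 9), with the mean and SD of each group (n = 3). The FGF2 embryos lie above the vehicle embryos in Cox6b2, Atp5k, Cox7c and Ndufa3, and in Atp5a1 and Sdha FGF2 8, at 374 and 90.1 CPM, lies below all others.

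As a class, the nuclear members had a median log2 fold change of 0.18 where all genes tested had 0.01. Of the 79 tested, 66 were above 0 (83.5%, against 51.4% of all genes) and 13 below it. The FGF2 embryos lay wholly above the vehicle embryos in 22 members (27.8%) against 14.6% of all genes, and wholly below them in 3 against 13.6%. An unadjusted p under 0.05 with a higher FGF2 level was found for 21 of 79, where all genes gave 11.2%, and with a lower level for 0 of 79, where all genes gave 8.13%. Without FGF2 8 the median was 0.12, with 64 of 79 above 0. Over the 54 tested members whose spans overlap no other gene it was 0.20, with 47 above 0. The members share libraries and are not independent of each other, and no test over the list was made.

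The share of all counted alignments that fell in nuclear subunit genes was 0.706%, 0.758% and 0.743% in FGF2 6, 7 and 8 and 0.682%, 0.661% and 0.694% in vehicle 7, 8 and 9. All FGF2 embryos were above all vehicle embryos, and FGF2 6 was only just above vehicle 9. Group means were 0.736% ± 0.0268 and 0.679% ± 0.0167 (SD, n = 3). With 3 embryos against 3, an exact two-sided permutation test cannot give a p below 0.1.

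By complex, complex IV had the highest median and complex II the lowest. In complex I, 34 of 37 members were above 0, with a median of 0.18. Complex II had 3 of 4 above 0 and a median of 0.10, complex III 6 of 8 and 0.19, complex IV 11 of 12 and 0.27, and complex V 12 of 18 and 0.15. Without FGF2 8 the medians for complexes I to V were 0.10, 0.09, 0.12, 0.17 and 0.11. The differences between complexes were not tested.

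**Figure D2:**
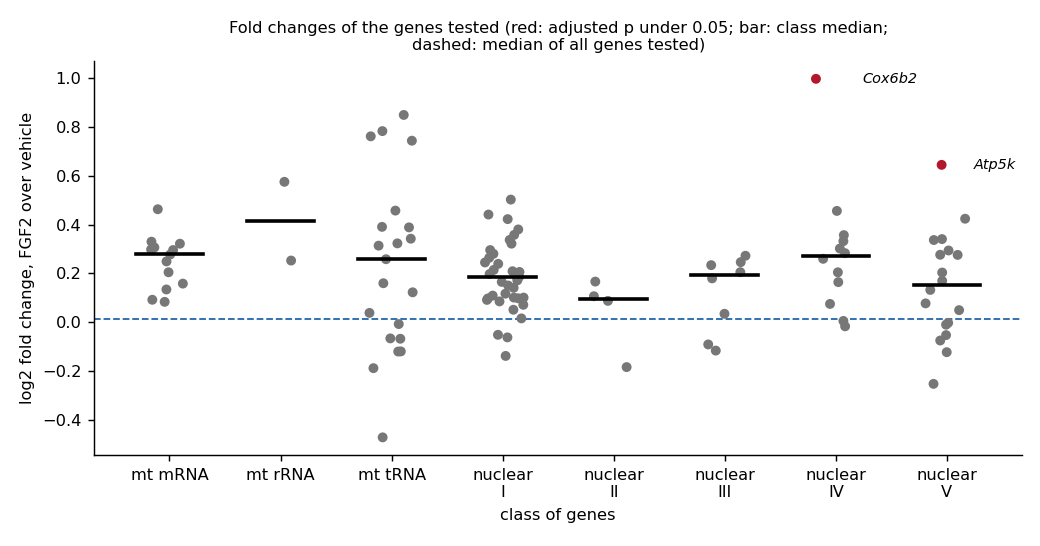
Log2 fold change (FGF2 over vehicle, edgeR) of each member tested, by class, with class medians as bars and the median of all genes tested (0.01) as a dashed line. The 2 members past an adjusted p of 0.05, Cox6b2 and Atp5k, are in red; most nuclear members lie above 0, and the mitochondrial tRNA genes spread from -0.47 to 0.85.

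Within a complex, the members did not move alike. The 7 core subunits of complex I that are encoded in the nucleus, such as Ndufs1 and Ndufv1, had a median log2 fold change of 0.07 with 5 of 7 above 0, against 0.20 and 29 of 30 for the other nuclear subunits of that complex. The 5 subunits of the catalytic F1 head of ATP synthase (Atp5a1, Atp5b, Atp5c1, Atp5d and Atp5e) had a median of -0.05 with 2 of 5 above 0, against 0.20 and 10 of 13 for the other complex V members. These groupings were made after the values were seen, so no test is given. The groups also differed in median transcript length. In complex I it was 1623 nt for the core subunits and 868 nt for the others. In complex V it was 1735 nt for the F1 head and 823.5 nt for the others. The part of length in these differences was not tested. Ndufa4 had the highest RPKM among the complex I symbols, 249 ± 19.3 with FGF2 and 211 ± 10.9 with vehicle, and a log2 fold change of 0.18 ± 0.09 (adjusted p = 0.297).

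In complex II, Sdha, the flavoprotein that oxidises succinate, was measured at 132, 134 and 90.1 CPM with FGF2 and at 135, 134 and 135 CPM with vehicle. FGF2 6, 7 and 8 were at 0.977, 0.994 and 0.668 of the vehicle mean, so FGF2 8 alone stood well below it. Its log2 fold change of -0.18 ± 0.15 did not pass (adjusted p = 0.531) and was -0.02 without FGF2 8. The other 3 genes of the complex are the iron-sulfur subunit Sdhb and the membrane anchors Sdhc and Sdhd. They had log2 fold changes of 0.11, 0.09 and 0.17, each with the FGF2 embryos above all vehicle embryos. Thus 3 of 4 members lay wholly above, where 14.6% of all genes did. Sdha lay wholly below, as 13.6% of all genes did. Sdhd, which had the highest RPKM of the complex (60.4 ± 4.76 against 52.5 ± 2.93), stood at 72.7, 78.0 and 70.0 CPM against 66.6, 60.9 and 69.3 CPM (adjusted p = 0.316).

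In complex III the larger subunits stood below the small ones. The core proteins Uqcrc1 and Uqcrc2 were below 0, at -0.09 ± 0.08 and -0.12 ± 0.08 (adjusted p = 0.561 and 0.488), with Uqcrc2 at 123, 135 and 113 CPM against 134, 133 and 136 CPM. The Rieske iron-sulfur protein Uqcrfs1 was at 0.03. The 5 small subunits Uqcr10, Uqcr11, Uqcrb, Uqcrh and Uqcrq lay between 0.18 and 0.27. Of these, Uqcr10 had the smallest p (44.6, 56.6 and 56.3 CPM against 44.7, 43.7 and 45.6 CPM, log2 fold change 0.23 ± 0.11, adjusted p = 0.280). FGF2 6 lay among the vehicle embryos there. Uqcrc1 had the highest RPKM of the complex, 88.9 ± 7.77 with FGF2 and 91.0 ± 1.799 with vehicle.

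In complex IV, Cox5a was the only one of 12 tested members below 0, at -0.02 ± 0.08 and 0.02 with library totals alone (102, 116 and 107 CPM against 106, 112 and 111 CPM, adjusted p = 0.922). Its partner around the catalytic core, Cox5b, was at 98.8, 100 and 120 CPM against 81.1, 89.6 and 95.6 CPM, and Cox6c at 83.8, 95.2 and 113 CPM against 77.1, 76.7 and 74.1 CPM. In both genes the groups did not overlap, and neither passed (adjusted p = 0.219 and 0.131). The tissue forms were low. The heart and muscle forms Cox6a2 and Cox8b, the testis form Cox8c, and Cox7b2 had at most 0.131 CPM in any embryo, with Cox8c at 0 in all 6. Cox7a1, the heart and muscle form of Cox7a2, held 0.908% to 1.10% of the pair's summed RPKM with FGF2 and 0.723% to 1.02% with vehicle. Cox4i2, a form known from lung and low oxygen, held 0.656% to 0.907% beside Cox4i1 with FGF2 and 0.672% to 0.888% with vehicle. Ndufa4l2, a hypoxia-induced relative of Ndufa4, was at 2.66, 1.72 and 3.70 CPM with FGF2 and 2.16, 2.41 and 3.05 CPM with vehicle, so the groups overlapped. Cox7a2l, which joins complexes III and IV, had a log2 fold change of 0.00 ± 0.11. The common forms Cox6a1, Cox7a2 and Cox8a had 0.20, 0.30 and 0.16, none past the threshold (adjusted p = 0.365, 0.241 and 0.529).

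In complex V, the catalytic beta subunit Atp5b was the most abundant nuclear member by CPM, at 818, 877 and 758 CPM with FGF2 and 894, 888 and 889 CPM with vehicle. The alpha subunit Atp5a1 stood at 551, 588 and 374 CPM with FGF2 and 599, 605 and 599 CPM with vehicle. In both genes every FGF2 embryo was below every vehicle embryo, and FGF2 8 was the lowest. The log2 fold changes were -0.12 ± 0.09 and -0.25 ± 0.16 (adjusted p = 0.490 and 0.436), and without FGF2 8 that of Atp5a1 was -0.08. The proton-carrying c subunit comes from 3 genes with the same mature protein. Atp5g2 had the highest RPKM of all nuclear members (345 ± 34.4 with FGF2, 313 ± 13.3 with vehicle), Atp5g3 had 78.9 ± 11.9 and 76.1 ± 2.77, and Atp5g1 had 23.0 ± 1.60 and 19.3 ± 0.760. Their log2 fold changes were 0.08, 0.00 and 0.20, and none passed (adjusted p = 0.710, 0.992 and 0.240). Atp5l and its copy Atp5l2 can share reads, so their separate values are uncertain. Atp5l was at 19.0 CPM in vehicle 9 against 27.5 and 28.4 CPM in the other vehicle embryos.

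Among the nuclear members, short transcripts had higher fold changes than long ones. Over the 78 nuclear members tested with a length, Spearman's rho between log2 fold change and length (the longest protein-coding transcript in GENCODE) was -0.455, and over 15706 genes with a length it was -0.206. These are correlations across genes measured in the same 6 libraries, given as a description. The 39 members at or under the median length of 913 nt had a median log2 fold change of 0.24 with 36 above 0, and the 39 longer ones 0.10 with 29 above 0. In FGF2 8 the median ratio to the vehicle mean was 1.31 in the shorter and 1.12 in the longer members. The corresponding ratios were 1.18 and 1.08 in FGF2 7, 1.03 and 1.03 in FGF2 6. For FGF2 8 over the mean of FGF2 6 and 7, all treated, rho with length was -0.327 over the members and -0.112 over all genes. For the mean of FGF2 6 and 7 over the vehicle mean it was -0.34 and -0.159. Length thus went with differences between treated embryos and with the group difference without FGF2 8. With an offset for the length of the gene span, introns included, the nuclear median was 0.15 in place of 0.18. In that fit 2 of 79 nuclear members were called. The part of transcript length in the group difference was not tested.

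**Figure D3:**
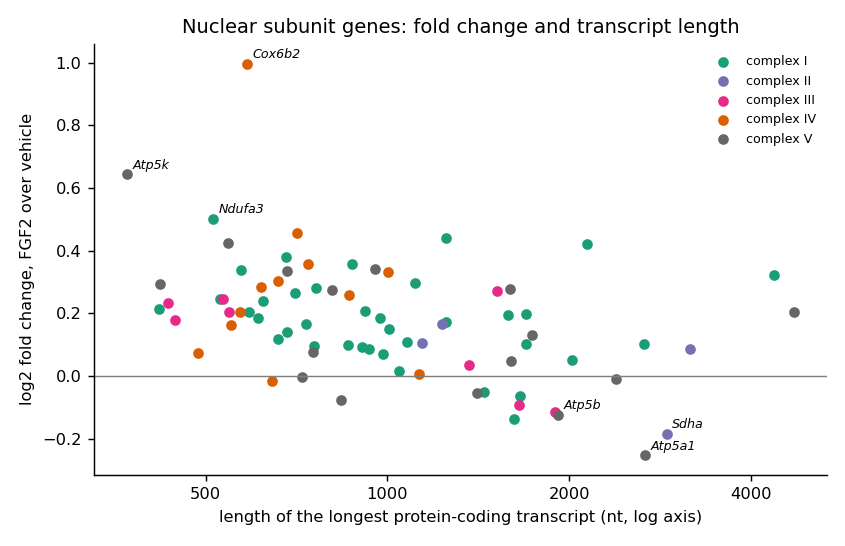
Log2 fold change (FGF2 over vehicle) of the 78 nuclear members tested with a length, against the length of the transcript in nucleotides on a log axis, coloured by complex. Cox6b2, Atp5k and Ndufa3 lie at the short end and high, and Atp5a1, Sdha and Atp5b lie further right and below 0.

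The 13 mitochondrial mRNA genes together took more alignments than any other class of members. Single genes could lie lower: mt-Nd4l and mt-Nd3 had lower CPM than Atp5b in every embryo, mt-Atp8 in all but FGF2 8, and mt-Nd6 in FGF2 7. As a class, the 13 genes took 2.55%, 2.45% and 3.66% of all alignments in FGF2 6, 7 and 8 and 2.39%, 2.49% and 2.31% in vehicle 7, 8 and 9. FGF2 6 and 7 lay near the vehicle embryos and FGF2 8 above all others. Group means were 2.89% ± 0.673 and 2.40% ± 0.0879 (SD, n = 3). All 13 had a log2 fold change above 0, from 0.08 to 0.46 with a median of 0.28, and none passed the threshold (smallest adjusted p = 0.365). FGF2 8 was the highest of the 6 embryos in 13 of 13 genes, at 1.33 to 1.70 times the vehicle mean, where it was highest in 28.0% of all genes tested. The median ratios of FGF2 6 and 7 to the vehicle mean were 1.02 and 0.999. Without FGF2 8 the median log2 fold change was 0.04, and 9 of 13 genes were above 0.

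**Figure D4:**
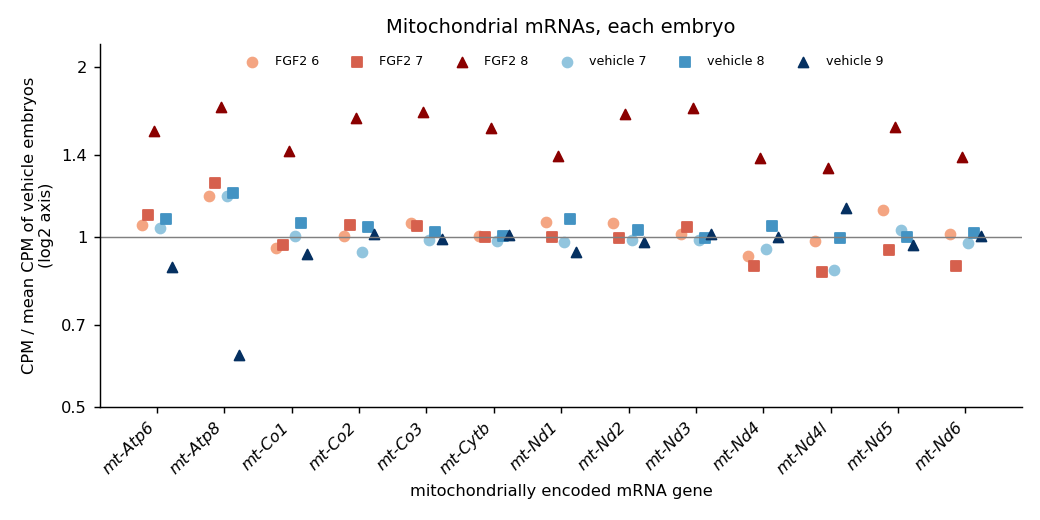
CPM of each of the 13 mitochondrial mRNA genes in each embryo, divided by the mean of the 3 vehicle embryos (log2 axis). FGF2 8 lies above the other embryos in every gene, between 1.33 and 1.70, and vehicle 9 lies at 0.618 in mt-Atp8.

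Among the complex IV mRNAs, mt-Co1, which encodes the subunit that reduces oxygen, was at 3020, 3059 and 4484 CPM with FGF2 and 3169, 3350 and 2950 CPM with vehicle (log2 fold change 0.16 ± 0.17, adjusted p = 0.648). Its partner mt-Co2 was at 1535, 1600 and 2479 CPM against 1434, 1592 and 1548 CPM (0.30 ± 0.18, adjusted p = 0.427). mt-Co3 was at 3224, 3183 and 5078 CPM against 3008, 3106 and 3023 CPM (0.33 ± 0.18, adjusted p = 0.375). It was the only one of the 13 genes whose groups did not overlap in CPM (7.69%, where 14.6% of all genes lay wholly above). mt-Cytb, the complex III subunit that carries electrons between the ubiquinone sites, was at 3734, 3726 and 5799 CPM against 3664, 3744 and 3751 CPM (0.25 ± 0.18, adjusted p = 0.488). The 5 embryos other than FGF2 8 lay close together in mt-Cytb.

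Of the complex I mRNAs, mt-Nd1 was at 3140, 2951 and 4116 CPM with FGF2 and 2894, 3180 and 2784 CPM with vehicle, and mt-Nd2 at 1419, 1336 and 2210 CPM against 1323, 1379 and 1314 CPM. mt-Nd3 was at 360, 371 and 603 CPM against 352, 355 and 360 CPM, and mt-Nd5 at 1826, 1551 and 2552 CPM against 1680, 1631 and 1580 CPM. In these 4 genes FGF2 6 and 7 stood within or beside the vehicle values. mt-Nd4 and mt-Nd4l, which overlap by 7 bases and are known to share an mRNA, had the smallest log2 fold changes, 0.09 ± 0.17 and 0.08 ± 0.17. mt-Nd4 was at 3582, 3437 and 5338 CPM against 3684, 4041 and 3872 CPM, so FGF2 6 and 7 were below all vehicle embryos and FGF2 8 above them. mt-Nd6, the only mRNA gene on the minus strand of the reference, was at 933, 816 and 1277 CPM against 897, 936 and 925 CPM (0.13 ± 0.16, adjusted p = 0.693). The sources used here do not say whether strand was used in counting, and antisense RNA of mt-Nd6 cannot be told apart from it.

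Per length, by RPKM, mt-Co3 had the highest level among the vehicle embryos, at 4170 ± 98.9 (SD, n = 3). mt-Cytb (3489 ± 31.6) and mt-Nd1 (3267 ± 223) followed, and these neighbours were within the spread of mt-Nd1. Then came mt-Nd4 (2988 ± 126), mt-Co2 (2375 ± 109) and mt-Co1 (2135 ± 157). mt-Nd6 (1670 ± 40.9) and mt-Atp6 (1626 ± 153) did not differ beyond their spread, and mt-Nd2 (1375 ± 45.6), mt-Nd3 (1099 ± 6.84) and mt-Nd5 (938 ± 49.4) lay below. mt-Atp8 averaged 1410 ± 820, with vehicle 9 far from the other embryos, as described next. mt-Nd4l was lowest, at 137 ± 11.3, far below mt-Nd4 although they share an mRNA. Their spans are 297 and 1378 bases long and overlap, and the part of this in the gap was not tested. In FGF2 embryos the order from mt-Co3 to mt-Co1 was the same, with 5453 ± 1454 for mt-Co3 and 2471 ± 544 for mt-Co1. The median RPKM over embryos and genes was 49.4 for the nuclear members and 1842 for the mitochondrial mRNAs.

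The ATP synthase genes mt-Atp8 and mt-Atp6 overlap, and the start of mt-Atp6 lies inside mt-Atp8. The gene is shown because its values set vehicle 9 apart. It runs from 7766 to 7969 on the plus strand of the mitochondrial genome (same position in NCBIM37 and GRCm38), and the capitals mark the 43 bases shared with mt-Atp6.
mt-Atp8: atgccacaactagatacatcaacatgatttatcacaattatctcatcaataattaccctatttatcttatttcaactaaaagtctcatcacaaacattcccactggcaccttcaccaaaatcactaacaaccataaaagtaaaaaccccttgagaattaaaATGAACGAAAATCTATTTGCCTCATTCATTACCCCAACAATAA
mt-Atp8 was at 761, 805 and 1097 CPM with FGF2 and at 762, 772 and 398 CPM in vehicle 7, 8 and 9. In RPKM vehicle 9 had 464, where the others had 1881 to 2711. mt-Atp6 was at 1119, 1167 and 1640 CPM against 1103, 1149 and 942 CPM. Vehicle 9 was the lowest embryo in both genes. The log2 fold change of mt-Atp8, 0.46 ± 0.26 (adjusted p = 0.385), was the highest of the 13, and without vehicle 9 it was 0.21.

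In the 2 rRNA genes FGF2 8 stood further out than in the mRNA genes. mt-Rnr1, the 12S rRNA, was at 230, 229 and 475 CPM with FGF2 and 189, 230 and 208 CPM with vehicle (0.58 ± 0.28, adjusted p = 0.315). mt-Rnr2, the 16S rRNA, was at 320, 325 and 617 CPM against 304, 368 and 388 CPM (0.25 ± 0.26, adjusted p = 0.637). FGF2 8 was at 2.27 and 1.747 times the vehicle mean. Together they took 0.0490% to 0.109% of alignments, so they stood far below the mRNAs in these libraries. The ratio of 16S to 12S reads was 1.39, 1.42 and 1.30 with FGF2 and 1.61, 1.60 and 1.86 with vehicle. The groups did not overlap in this ratio, and the smallest two-sided p that an exact permutation of 3 against 3 embryos allows is 0.1.

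Spans of the 22 tRNA genes held 0.0334%, 0.0325% and 0.0536% of alignments with FGF2 and 0.0344%, 0.0350% and 0.0470% with vehicle. FGF2 8 and vehicle 9 were the 2 high embryos. The spans are 59 to 75 bases long, so that a read counted there can belong to a neighbouring mRNA or an uncut precursor. Of 21 tested, none was called (smallest adjusted p = 0.270), 14 were above 0 and 7 below, with a median log2 fold change of 0.26 that was -0.09 without FGF2 8. FGF2 8 was the highest embryo in 14 of 21. Those that show the range are printed as DNA in the sense of the gene, with capitals for the 3 bases of mt-Ts1 that overlap mt-Co1 on the other strand.
mt-Ts1: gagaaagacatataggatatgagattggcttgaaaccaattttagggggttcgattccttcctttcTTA
mt-Te: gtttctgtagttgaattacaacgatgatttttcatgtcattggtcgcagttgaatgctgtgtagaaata
mt-Tp: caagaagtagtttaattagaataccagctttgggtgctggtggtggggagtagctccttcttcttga
mt-Tv: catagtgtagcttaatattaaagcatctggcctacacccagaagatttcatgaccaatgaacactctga

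mt-Ts1 (bases 6870 to 6938, minus strand) encodes a serine tRNA and lies between mt-Co1 and mt-Td. It had the highest mean, with 121, 131 and 204 CPM in the FGF2 embryos and 141, 146 and 234 CPM in vehicle 7, 8 and 9. mt-Te (14071 to 14139, minus strand), the glutamate tRNA between mt-Nd6 and mt-Cytb, had 109, 98.6 and 161 CPM against 109, 109 and 167 CPM. In both, FGF2 8 and vehicle 9 were high and the other 4 embryos close together. mt-Tv (1025 to 1093, plus strand), the valine tRNA between the rRNA genes, had the lowest, with 2 to 24 reads in a library and at most 0.359 CPM. Within the 8 tRNA genes of the minus strand, the median RPKM over genes was 69.2, and within the 14 of the plus strand 4.12.

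mt-Tp (15356 to 15422, minus strand), the proline tRNA, shows the opposite place of vehicle 9. It was at 8.94, 7.34 and 12.3 CPM with FGF2 and at 6.82, 7.32 and 2.70 CPM with vehicle. mt-Ta and mt-Tn, which are close neighbours on the minus strand, were low by CPM in vehicle 9 as well. They stood at 4.06 and 4.16 CPM, against 6.71 to 8.98 CPM in the other vehicle embryos. The next gene, mt-Tc, was high in vehicle 9 at 14.0 CPM against 8.23 and 8.39. By RPKM, mt-Ta was at 18.4 in vehicle 9 against 62.3 and 65.8, but mt-Tn at 45.1 against 52.4 and 49.8. mt-Ta, mt-Tn and mt-Tp were the 3 tRNA genes whose FGF2 embryos all lay above the vehicle embryos, with log2 fold changes of 0.74, 0.85 and 0.76 (adjusted p = 0.287, 0.270 and 0.314). This is 3 of 21 tested (14.3%), near the 14.6% of all genes. Values of vehicle 9 in such short features moved in both directions next to each other, and the part of its even counts in this was not tested.

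**Figure D5:**
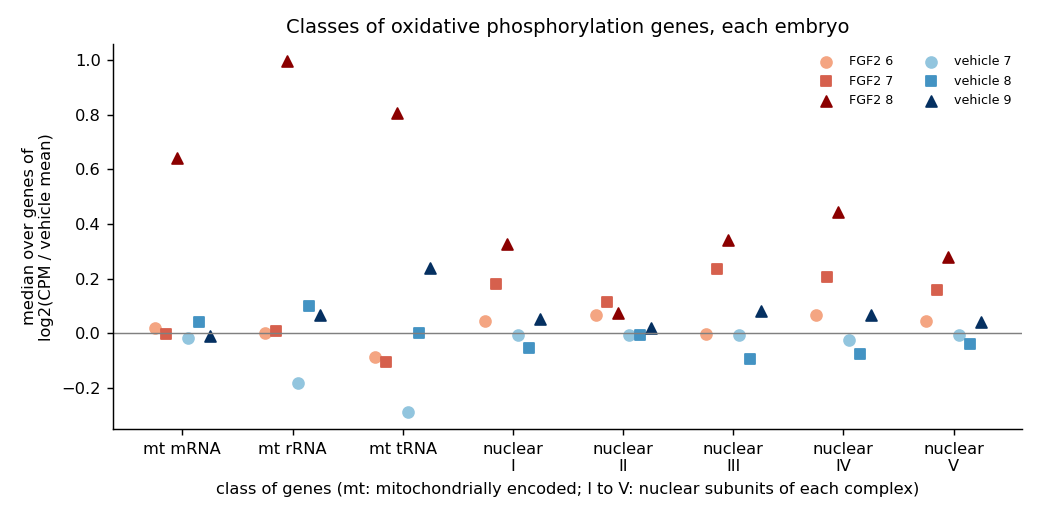
Median over the tested genes of each class of log2(CPM over the vehicle mean), for each embryo. FGF2 8 is highest in every class except complex II, where FGF2 7 is, and FGF2 6 and 7 lie near 0 in the mitochondrial mRNAs but FGF2 7 lies above 0 in complexes I to V.

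Set against each other within a library, which no scaling between libraries can change, mitochondrial mRNA reads were 3.62, 3.23 and 4.93 times the nuclear subunit reads in FGF2 6, 7 and 8 and 3.51, 3.76 and 3.33 times in vehicle 7, 8 and 9. FGF2 7 was the lowest of all and FGF2 8 the highest. The log2 ratio averaged 1.95 ± 0.32 and 1.82 ± 0.09 (SD, n = 3), a difference of 0.13 that was within the spread of the FGF2 embryos and was -0.05 without FGF2 8.

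Several marker lists of the tissue's cell types differed between the groups, where 2.68% of all genes were called higher and 0.951% lower. The 8 dorsal telencephalon markers (4 called lower) summed to 1272 to 1487 CPM with FGF2 and 1986 to 2126 CPM with vehicle. Summed over 6 choroid plexus markers, all detected in every embryo and 5 called higher, levels were 157, 220 and 469 CPM in FGF2 6, 7 and 8 and 1.37 to 2.88 CPM with vehicle. FGF2 8 was highest both there and in the mitochondrial mRNAs. The 9 ventral telencephalon markers (5 called higher, none at 0) summed to 537, 645 and 721 CPM with FGF2 and 62.7 to 177 CPM with vehicle. The 9 red blood cell markers (none called or at 0) summed to 2605, 4657 and 4326 CPM against 2338 to 3275 CPM, with FGF2 6 among the vehicle embryos. The 5 meningeal markers (2 called lower, none at 0) summed to 2142 to 2367 CPM against 3483 to 4001 CPM. The 4 microglia markers (1 called higher, none at 0) summed to 63.5 to 72.0 CPM against 44.8 to 53.5 CPM. The 4 endothelial markers (none called or at 0) overlapped, at 148 to 166 CPM against 138 to 156 CPM, and the 6 muscle markers (4 tested, none called) summed to at most 6.34 CPM. The part of these cell types in the nuclear and mitochondrial values was not tested.

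Genes that serve the same complexes without matching the name rule were read from lists. For comparison, 11.2% of all genes were higher and 8.13% lower at an unadjusted p under 0.05. DESeq2 called 6.11% of all genes higher and voom with sample quality weights 5.79%. Of the 21983 genes tested, these methods called 801 and 986 lower. The counts below are read against these shares and counts. The list of 9 genes outside the pattern holds subunits and electron carriers such as Cyc1 and Cycs (cytochromes c1 and c) and Cox4i1, the ATP synthase inhibitor Atpif1 and Hccs, the enzyme that joins haem to cytochromes c. All 9 were above 0 with a median of 0.20, and 0 of 9 passed (3 were higher at an unadjusted p under 0.05, and DESeq2 and voom called 0). Cox4i1 was at 161, 183 and 215 CPM with FGF2 and 144, 140 and 163 CPM with vehicle (log2 fold change 0.32 ± 0.12, adjusted p = 0.190), and Usmg5, a small ATP synthase subunit, had 0.48 ± 0.18 (adjusted p = 0.199). Of 43 assembly factors 0 passed, with a median of 0.06 (4 were higher and 4 lower at an unadjusted p under 0.05). DESeq2 called 1 higher and 1 lower, and voom 1 higher and 2 lower. The 2 with the smallest p went opposite ways. Coa5, needed for complex IV, was at -0.36 ± 0.09 (edgeR adjusted p = 0.0846). Lyrm7, needed for complex III, was at 1.11 ± 0.30 (edgeR adjusted p = 0.0923). Of 10 carriers 0 passed, with a median of 0.03. At an unadjusted p under 0.05, 1 was higher, and DESeq2 and voom each called 1 higher. The uncoupling protein relative Ucp2 stood at 56.2, 59.6 and 60.1 CPM against 37.7, 47.1 and 47.9 CPM (0.41 ± 0.11, adjusted p = 0.0863), and Vdac3, an outer membrane pore, had 0.16 ± 0.08 (adjusted p = 0.331).

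Of 23 genes of mitochondrial DNA upkeep and RNA synthesis 0 passed, with a median of 0.00. At an unadjusted p under 0.05, 2 were higher and 2 lower. DESeq2 and voom each called 1 higher and 1 lower. Polg, the mitochondrial DNA polymerase, was at 58.1, 57.2 and 60.3 CPM with FGF2 and 71.7, 70.2 and 72.1 CPM with vehicle (-0.29 ± 0.07, adjusted p = 0.0617), groups that did not overlap, and Mterf4 had 0.37 ± 0.10 (adjusted p = 0.106). Of 17 genes of pyruvate dehydrogenase and the citric acid cycle 0 passed, at an unadjusted p under 0.05 and by DESeq2 and voom as well, with a median of 0.00. The smallest p belonged to Sucla2 (0.16 ± 0.08, adjusted p = 0.333) and Fh1 (0.15 ± 0.08, adjusted p = 0.358). Of 76 mitochondrial ribosomal proteins 1 was called higher and 0 lower, where 2.68% and 0.951% of all genes were. At an unadjusted p under 0.05, 9 were higher and 0 lower (11.2% and 8.13% of all genes). DESeq2 called 4 and voom 3, all higher, where they called 6.11% and 5.79% of all genes higher. Of the 76, 59 were above 0 (51.4% of all genes) with a median of 0.09. The called gene was Mrps6, at 50.6, 53.6 and 48.3 CPM against 35.9, 37.9 and 41.1 CPM (0.41 ± 0.09, adjusted p = 0.0473). Its span overlaps 3 other genes. Mrpl39 followed with 0.27 ± 0.08 (adjusted p = 0.109). Of 10 regulators of mitochondrial biogenesis 1 was called higher and 0 lower, with a median of -0.08. At an unadjusted p under 0.05, 1 was higher and 2 lower, and DESeq2 and voom each called 1 in each direction. The gene called higher was Esrrg, an oestrogen-related receptor, at 9.45, 9.53 and 17.4 CPM against 4.48, 4.92 and 2.38 CPM (1.62 ± 0.34, adjusted p = 0.0461). Ppargc1a, a coactivator of nuclear subunit genes, was at 5.24, 4.93 and 5.83 CPM against 8.23, 7.78 and 6.38 CPM (-0.48 ± 0.16, adjusted p = 0.149). The calls of Mrps6 and Esrrg were lost without any 1 embryo other than FGF2 8.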

How the data were processed

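RNA-seq libraries of 3 FGF2-injected and 3 vehicle-injected embryos were grouped by their labels. The submitters' processing notes name bedtools 2.12.0, TopHat2 2.0.9, CASAVA 1.8 and Bowtie2 2.1.0.0, without their roles, and the build NCBIM37 (mm9). The deposited counts are whole numbers of alignments over each gene's span, introns included, and the deposited fraction of each span covered stands beside them. The deposited RPKM values are per symbol, per the authors' file naming, and were used to compare levels between genes. Positions are 1-based and from the files, and the 37 mitochondrial spans are the same in GRCm38. Promoters are from RefSeq (66 of 83 nuclear members matched).

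Counts were tested with edgeR 4.0.16 in R 4.3.3 (filterByExpr, TMM, robust glmQLFit, glmQLFTest) over all 6 libraries, with Benjamini-Hochberg adjustment over 21983 genes. CPM uses TMM library sizes. DESeq2 1.42.0, limma 3.58.1 with voom weights, or on log2(RPKM + 1) or log2(RPKM + 0.1) where 3 libraries reached an RPKM of 1, other scalings and filters, each embryo left out, a replicate block, sex, halved counts of vehicle 9 and spans without overlap were alternatives. The scripts were tested on simulated data for this comparison, with 21672 genes. They called 78 of 100 genes changed 2-fold and 97 of 100 changed 4-fold, with 8 false calls. Changes as small as the class medians, 1.13-fold for nuclear members and 1.21-fold for mitochondrial mRNAs, were not simulated. Nor was an embryo that stood apart as FGF2 8 did. The members and lists were chosen with earlier results of these data known. Genes were named by a rule: all mitochondrial mRNA and rRNA genes, the called members, per complex the smallest p in each direction and the highest RPKM, fixed tissue forms, and the 2 smallest p of each related list. One gene under this rule is not reported here. Other named genes were chosen after their values were seen. Nothing says that the samples are separate litters, so p-values measure the spread between these embryos. Libraries held 61489462 to 81532334 alignments, and each group has 3 embryos.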

Additional observations from a re-analysis of the deposited data

How the results depend on the processing

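The 2 nuclear genes called became 5 with library totals alone, 4 with no low-count filter, 7 with voom and sample quality weights, 6 with DESeq2, 0 with sex as a covariate and 1 with log2(RPKM + 1) and no filter, and ranged from 0 to 5 as each embryo was left out. Over all genes, 799 calls became 2259 with voom weights, 2145 with DESeq2, 488 with only genes overlapping no other span (fewer genes tested), 5 with sex, 432 with log2(RPKM + 1), 431 with log2(RPKM + 0.1) and 271 without its filter, and ranged from 218 to 1943 as each embryo was left out. The cause was not tested. With sex in the fit, the group difference rests on vehicle 7 as the only male control. No mitochondrial gene was called in any of the 21 alternatives. The nuclear median ranged from 0.12 to 0.27 and the mitochondrial mRNA median from 0.04 to 0.37. Same-numbered embryos did not deviate together (correlations of -0.0398 for number 7 and -0.0345 for number 8). The labels do not say what the numbers mean, and 2 shared numbers cannot show whether they pair the embryos. With the replicate block, 703 genes and 2 nuclear members were called, Atp5k and, in place of Cox6b2 (adjusted p = 0.0514), Ndufa3 (0.0413). Number 6 occurs only with FGF2 and number 9 only with vehicle. The group difference in this fit therefore rests on the embryos numbered 7 and 8 alone.

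Of 1083 values of 53 named genes, 982 kept their direction and side of the threshold, 30 were weaker, 26 stronger and 45, in 12 genes not called, changed sign. Leaving out embryos gave log2 fold changes of -0.018 to 0.132 for Atp5g2, -0.112 to 0.0976 for Atp5g3, -0.072 to 0.0225 for Cox5a, -0.0937 to 0.252 for Cox7a1, -0.0751 to 0.0712 for Cox7a2l, -0.211 to 0.318 for Ndufa4l2, -0.0548 to 0.253 for mt-Co1, -0.140 to 0.199 for mt-Nd4, -0.112 to 0.202 for mt-Nd4l, -0.0725 to 0.259 for mt-Nd6, -0.131 to 0.409 for mt-Rnr2 and -0.461 to 0.0847 for mt-Ts1. With voom weights the values were 0.0899 for Atp5g3, -0.0788 for Cox7a2l, -0.104 for Ndufa4l2, -0.0227 for mt-Co1, -0.0838 for mt-Nd4, -0.0216 for mt-Nd4l, -0.0287 for mt-Nd6 and -0.00397 for mt-Rnr2. Atp5g3 was at 0.0400 with library totals, 0.0135 with a minimum of 1 CPM, 0.0198 with the block, 0.0332 with sex, 0.0415 with log2(RPKM + 1), filtered or not, and 0.0418 with log2(RPKM + 0.1). Cox5a was at 0.0240 with library totals, 0.0282 with the block, 0.0284 with sex, 0.0358 with log2(RPKM + 1), filtered or not, and 0.0360 with log2(RPKM + 0.1). Cox7a2l was at -0.00496 with RLE size factors, -0.00481 with an offset for span length, -0.00529 with DESeq2, -0.000113 with spans without overlap and -0.0722 with sex. mt-Ts1 was at 0.194 with the block and 0.115 with sex.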
